A study of Mus musculus with 34 samples.

Results

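A set of 10 genes of the Polycomb system, Ezh1, Ezh2, Eed, Suz12, Jarid2, Mtf2, Rnf2, Cbx2, Cbx7 and Pcgf6, were followed through mouse cells leaving naive pluripotency. They were found as the rows of the deposited gene table whose symbol equals 1 of these names, 10 of 24103 entries, and each name had a row of its own. RNA was measured in 34 libraries of 9 groups. Cells of the embryonic stem cell line CBMS1 (strain CBA/MsM), kept in the medium 2i/LIF, were sampled at day 0 (n = 3 libraries), as epiblast-like cells (EpiLC) at day 2 (n = 5), and as embryoid bodies (EB), floating aggregates grown without added factors, at days 3, 4, 5 and 6 (n = 3 each) and day 7 (n = 5). Epiblast stem cells (EpiSC, strain C57BL6, female, n = 3) were grown in Activin and FGF on a layer of fibroblasts, at passages 6 and 7, all under 1 line name. Embryonic fibroblasts (MEF, strain C57BL6, n = 6) came from embryos of 12.5 days, as 2 cultures sampled at passages 0, 1 and 2. All course libraries thus derive from 1 cell line, and the labels name no genetic change in any group.

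Polycomb proteins keep developmental genes silent through 2 complexes. Polycomb repressive complex 2 (PRC2) methylates lysine 27 of histone H3 through Ezh2 or its paralog Ezh1, which need Eed and Suz12 to be active. Jarid2 and Mtf2 are accessory subunits that help bring PRC2 to its sites, many of them CpG islands. Polycomb repressive complex 1 (PRC1) places ubiquitin on histone H2A through Rnf2, also called Ring1B, or its paralog Ring1. Canonical PRC1 holds a Cbx protein such as Cbx2 or Cbx7, whose chromodomain binds the mark of PRC2. Variant PRC1 holds other subunits in its place, among them complexes built on Pcgf6. In mouse embryonic stem cells Cbx7 is known as the main Cbx protein of canonical PRC1, and Cbx2 is known to take its place on differentiation.

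The promoters of Ezh2, Suz12 and Cbx7 are shown because these genes had the 3 kinds of course described below: a level that was highest at day 7 without reaching the minimum for a call, a lower level from day 2 on, and a fall between days 4 and 5. Each sequence holds the 250 bases before the start site on the strand of the gene, from the RefSeq promoter table of build GRCm38.p6. They lie at chr6:47595031-47595280 on the minus strand (Ezh2), chr11:79992856-79993105 on the plus strand (Suz12) and chr15:79932647-79932896 on the minus strand (Cbx7). Capitals mark matches to the CCAAT box (CCAAT), the GC box (GGGCGG) and the E2F-like words TTTGGCGC, TTTCGCGC and TTTCCCGC, each searched on both strands.
Ezh2: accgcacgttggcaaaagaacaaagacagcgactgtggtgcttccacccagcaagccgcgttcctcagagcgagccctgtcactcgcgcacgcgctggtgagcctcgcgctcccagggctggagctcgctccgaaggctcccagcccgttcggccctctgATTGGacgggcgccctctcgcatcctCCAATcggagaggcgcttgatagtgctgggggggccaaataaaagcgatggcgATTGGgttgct
Suz12: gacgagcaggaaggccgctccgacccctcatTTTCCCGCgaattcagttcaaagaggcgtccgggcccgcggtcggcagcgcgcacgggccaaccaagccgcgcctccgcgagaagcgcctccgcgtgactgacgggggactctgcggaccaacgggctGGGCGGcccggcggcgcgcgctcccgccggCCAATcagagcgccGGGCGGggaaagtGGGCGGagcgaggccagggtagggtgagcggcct
Cbx7: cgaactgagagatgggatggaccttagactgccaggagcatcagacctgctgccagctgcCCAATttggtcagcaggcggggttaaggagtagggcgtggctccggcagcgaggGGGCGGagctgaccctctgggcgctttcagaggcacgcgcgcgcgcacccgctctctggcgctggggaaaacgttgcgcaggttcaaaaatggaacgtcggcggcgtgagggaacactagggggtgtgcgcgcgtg
Ezh2 had 3 CCAAT boxes, the nearest beginning 11 bases before the start, and TTTGGCGC beginning at base 4 from the start, past the end of the printed window. Suz12 had TTTCCCGC 219 bases before the start, 3 GC boxes and 1 CCAAT box. Cbx7 had a CCAAT box 190 bases and a GC box 136 bases before the start. In windows of 250 bases before to 50 bases after the start, the CCAAT box occurred in 37.4% of 32851 mouse promoters, the GC box in 35.7%, TTTGGCGC in 0.514%, TTTCCCGC in 1.07% and TTTCGCGC in 0.323%. Of the 10 genes, 9 had an entry, 11 promoters in all, and Cbx2 had none. The CCAAT box was found in 6 of the 9 (Ezh2, Eed, Suz12, Jarid2, Mtf2 and Cbx7) and the GC box in 6 (Suz12, Jarid2, Mtf2, Rnf2, Cbx7 and Pcgf6). TTTCGCGC was in none of them. The printed windows held 23 CpG dinucleotides in Ezh2, 37 in Suz12 and 23 in Cbx7, where the median of all promoters was 6. A match describes letters in a window and not binding.

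Values are FPKM, fragments per kilobase of transcript scaled to library size, as the authors deposited them, and levels are mean ± SD over libraries. Differences are on the log2(FPKM + 1) scale from limma, which understates changes of low genes. A gene was called, and is said to rise or fall, where the difference reached 1 in size and its p, adjusted by Benjamini-Hochberg over all entries, was under 0.05. Overlap of libraries between groups is a description, and the share of all entries without overlap is not given here. Of the 24103 entries, 14595 reached 1 FPKM in 3 or more libraries and were tested, all 10 Polycomb genes among them. Fragment totals are unknown, so that counting error cannot be given, and relative depth estimated from steps in low FPKM ran from 0.85 to 1.18 times the median library. The labels call the replicates biological without saying whether cultures were separate, so p-values measure the spread between these libraries. For each gene limma estimates 1 spread shared by all 9 groups. Where a group varies more than the others, its SE and p are therefore too small. The 6 MEF libraries are passages of 2 cultures, and p-values of comparisons with MEF count them as 6 separate libraries. In 9 of the 25 course libraries the cell type field names another stage than title and source name, which were followed. Marker genes were compared with the titles: 6 naive pluripotency genes summed to 1445 to 1595 FPKM at day 0 and at most 250 in any other library. The sum of 5 formative epiblast genes was 756 to 852 at day 2 and 637 to 897 at day 3, which overlap, against 17.9 to 23.6 at day 0. That of 5 neural progenitor genes was 105 to 172 at day 7 and 105 to 115 at day 6, which overlap, against 10.1 to 12.2 at day 0. These sums thus do not tell day 2 from day 3 or day 6 from day 7. The day 3 library of replicate 3 stood apart, with a summed FPKM of 990727 where the median library had 599704 and the next highest 734764. All libraries of day 0 and MEF belong to the first of 2 project numbers in the labels (project A) and all of EpiSC to the second (project B). In bulk RNA, fewer cells that express a gene and less RNA per cell cannot be told apart.

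Over days 0 to 7, limma's moderated F test called 7 of 10 (54.6% of all entries tested were called), all but Ezh1 (adjusted p = 0.165, range of group means 0.58 on the log2 scale), Ezh2 (adjusted p = 0.027, range 0.53) and Rnf2 (adjusted p = 2.34e-05, range 0.64). The ratio of the highest to the lowest group mean over all 9 groups was 51.8 for Cbx7, 14.1 for Jarid2, 12.3 for Mtf2, 9.9 for Cbx2, 7.87 for Pcgf6, 5.97 for Suz12, 5.91 for Ezh2, 4.54 for Eed, 2.84 for Ezh1 and 1.63 for Rnf2. Each of the 10 had its lowest mean in MEF. The highest mean was at day 0 for Eed, Suz12, Mtf2 and Cbx7, at day 2 for Jarid2 and Pcgf6, at day 7 for Ezh2 and Cbx2, at day 6 for Rnf2 and in EpiSC for Ezh1.

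**Figure D1:**
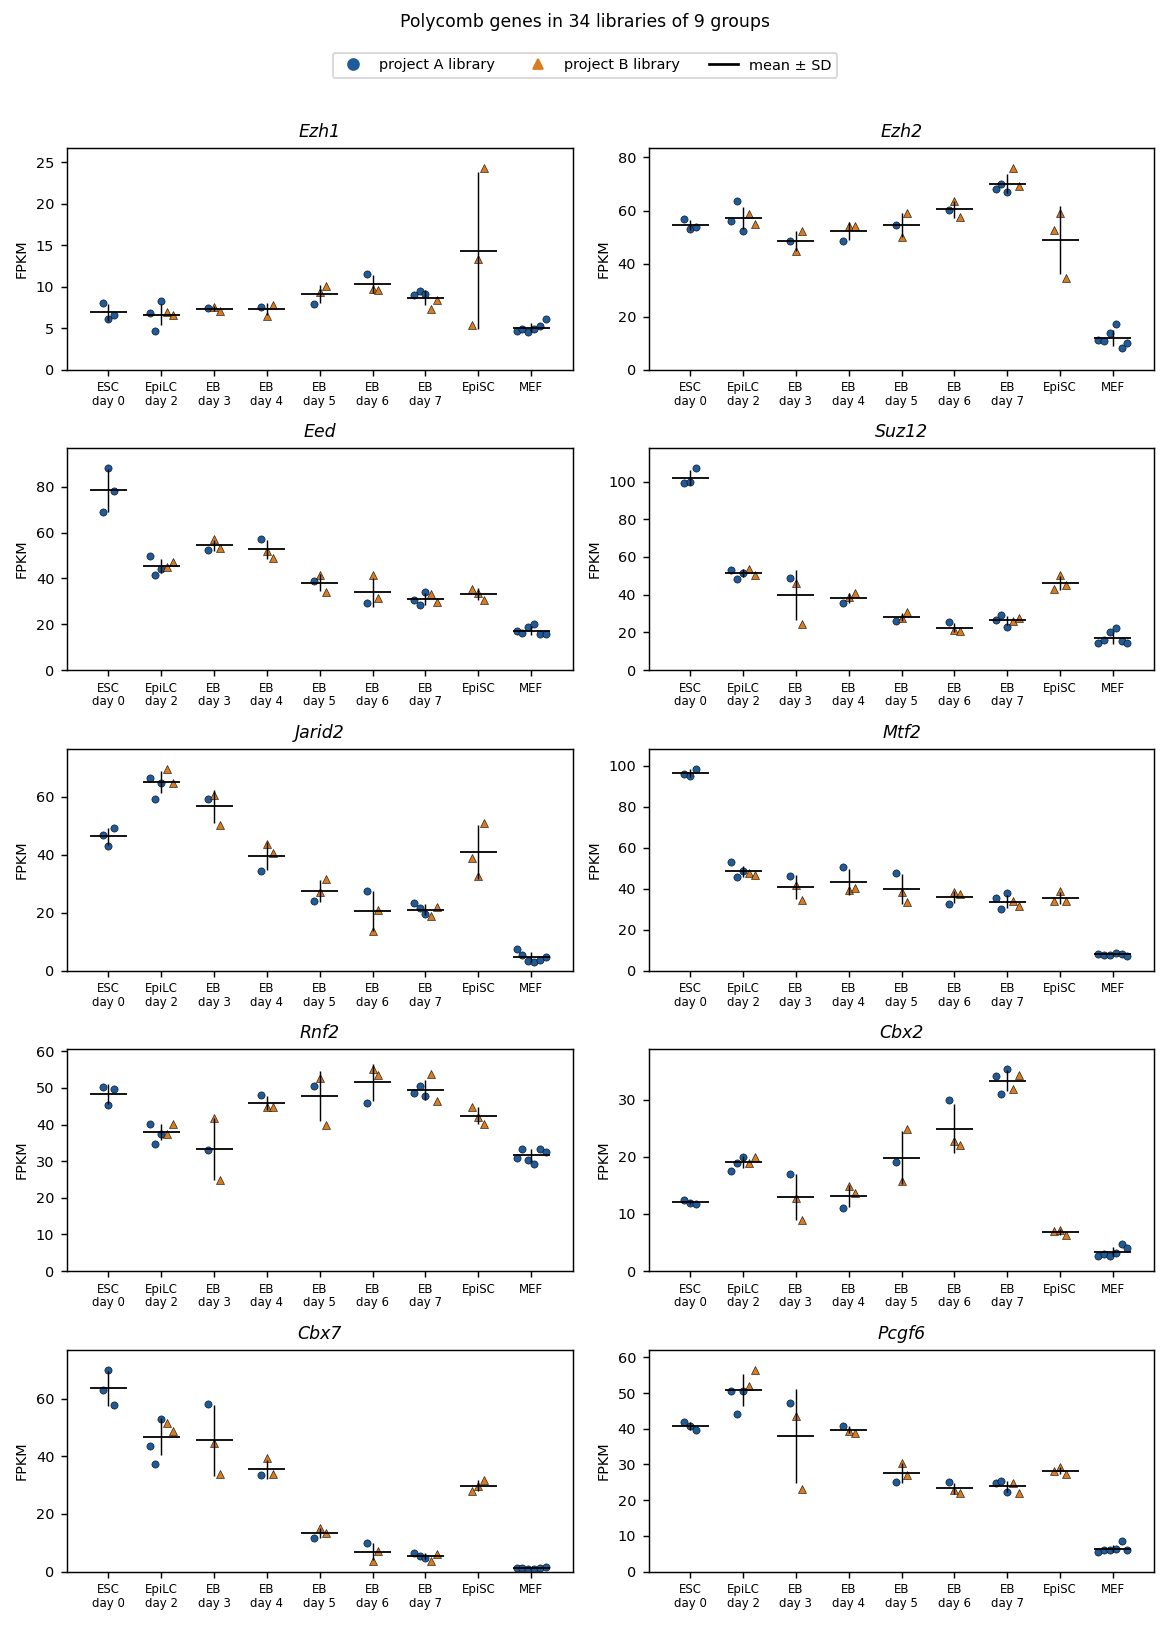
FPKM of the 10 Polycomb genes in each of 34 libraries, 1 point per library, by group on the horizontal axis; lines show the group mean and SD, circles project A and triangles project B. Cbx7 dropped from 35.5 at day 4 to 13.3 at day 5, Suz12 was highest at day 0, Ezh2 stayed between 44.7 and 76.1 along the course, and all 10 means are lowest in MEF.

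Ezh2, the main methyltransferase of PRC2 in dividing cells (XLOC_017778, mm9 chromosome 6, 47480273 to 47545029), was at 56.8, 53.1 and 53.7 FPKM in the 3 libraries of day 0. At day 2 it was at 56.2, 63.4, 52.4, 58.6 and 54.9, and at day 7 at 68.3, 70.0, 66.9, 76.1 and 69.3. Day 7 lay above every other course library, and the other days overlapped with their neighbours in the order of means. The difference of day 7 from day 2 was 0.29 (SE 0.13, adjusted p = 0.0381), short of the minimum. In MEF Ezh2 ran from 8.27 to 17.1, median 10.9, below all other libraries. Ezh1, the paralog known to persist in cells that no longer divide (XLOC_004034, mm9 chromosome 11, 101052429 to 101087777), had course means between 6.61 and 10.3 FPKM. In MEF it ran from 4.58 to 6.11, median 4.87, and in EpiSC the 3 libraries had 5.41, 13.3 and 24.3. The EpiSC libraries thus spread more than all other groups, and the library highest in Ezh1 was the one lowest in Ezh2, at 34.5 against 52.7 and 59.2. The log2 ratio of Ezh1 to Ezh2 was -2.99 ± 0.15 at day 0, -3.02 ± 0.21 at day 7, -1.98 ± 1.39 in EpiSC and -1.20 ± 0.46 in MEF. Ezh1 made up 11.2% ± 1.08 of the summed FPKM of both genes at day 0 and 30.7% ± 6.65 in MEF, where its own level was not higher than at day 0 (difference -0.38, SE 0.22, adjusted p = 0.109).

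Eed and Suz12, the subunits that Ezh2 cannot work without, did not share its course. Suz12, which holds the complex together (XLOC_002944, mm9 chromosome 11, 79806608 to 79847625), was at 99.4, 100 and 107 FPKM at day 0 and at 53.2, 48.1, 51.7, 53.4 and 50.4 at day 2. No day 2 library came near day 0. The mean was 102 ± 3.99 at day 0, 51.4 ± 2.17 at day 2, 38.3 ± 2.63 at day 4, 28.1 ± 2.3 at day 5, 22.5 ± 2.49 at day 6 and 26.4 ± 2.37 at day 7. At day 3 replicates 1 and 2 had 49.0 and 46.0 and the library that stood apart had 24.5. Eed, which binds methylated lysine 27 (XLOC_019991, mm9 chromosome 7, 97103164 to 97129486), was at 69.0, 88.1 and 78.2 FPKM at day 0 and at 49.6, 41.7, 44.1, 44.8 and 47.3 at day 2. These groups did not overlap either. The Eed mean was 54.4 ± 2.53 at day 3, 52.7 ± 4.13 at day 4 and 31.1 ± 2.49 at day 7. In EpiSC Suz12 was at 43.2, 50.4 and 45.1, a range that overlaps day 2, while Eed was at 35.6, 33.6 and 30.4, below all day 2 libraries and overlapping days 5, 6 and 7. Per length, Suz12 was thus above Ezh2 at day 0 (102 against 54.5 FPKM) and below it at day 7 (26.4 against 70.1).

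The 2 accessory subunits differed in direction from day 0 to day 2. Mtf2, a Polycomb-like protein that binds unmethylated CpG-rich DNA (XLOC_015992, mm9 chromosome 5, 108494693 to 108538238), was at 95.7, 95.0 and 98.4 FPKM at day 0 and at 53.0, 45.8, 48.4, 47.8 and 46.8 at day 2. Jarid2, a relative of histone demethylases without known demethylase activity (XLOC_005248, mm9 chromosome 13, 44826143 to 45017012), was at 46.9, 43.1 and 49.1 at day 0 and at 66.6, 59.3, 64.8, 69.7 and 64.9 at day 2. Mtf2 was lower and Jarid2 higher at day 2, in both cases without overlap. Neither was called by limma (-0.98 and 0.48), and 52.2% of all entries had an adjusted p under 0.05 from day 0 to day 2. From there Jarid2 had means of 56.7 ± 5.68 at day 3, 39.6 ± 4.82 at day 4, 27.6 ± 3.78 at day 5, 20.6 ± 6.88 at day 6 and 21.0 ± 1.87 at day 7. Mtf2 moved less, from 48.4 ± 2.8 at day 2 to 33.6 ± 3.15 at day 7, and each course day from 2 to 7 overlapped with its neighbour in the order of means. In EpiSC Jarid2 had 39.0, 32.7 and 51.0, overlapping days 0, 3 and 4, and Mtf2 had 33.8, 39.0 and 34.0, overlapping days 3, 5, 6 and 7.

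In PRC1, the ubiquitin ligase Rnf2 (XLOC_001094, mm9 chromosome 1, 153316536 to 153347953) had group means between 31.6 and 51.5 FPKM, the narrowest span of the 10. It was at 50.2, 45.3 and 49.7 at day 0, at 40.1, 34.8, 37.5, 37.5 and 40.2 at day 2 and at 48.7, 50.5, 47.8, 53.7 and 46.4 at day 7, so that day 2 lay below both. Pcgf6, which defines a variant PRC1 that acts on germline genes (XLOC_010951, mm9 chromosome 19, 47108109 to 47125335), was at 41.9, 40.7 and 39.6 at day 0 and at 50.7, 44.1, 50.7, 51.9 and 56.5 at day 2. At day 4 it was at 40.8, 39.5 and 38.9, and at day 5 at 25.1, 30.5 and 27. Pcgf6 at days 5, 6 and 7 lay below all libraries of days 0, 2 and 4, and EpiSC, at 28.1, 29.2 and 27.4, lay within the range of day 5. At day 3 Pcgf6 had 47.2 and 43.7 in replicates 1 and 2 and 23.0 in the library that stood apart.

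The chromodomain genes changed places. Cbx7 (XLOC_007511, mm9 chromosome 15, 79746237 to 79763076) was at 63.1, 70.0 and 57.8 FPKM at day 0, at 33.4, 39.3 and 33.7 at day 4 and at 11.6, 15 and 13.5 at day 5. It had 9.81, 3.8 and 7.05 at day 6 and 6.34, 5.47, 4.76, 3.81 and 6.09 at day 7. Every library from day 5 on lay below every earlier course library. Cbx2 (XLOC_003302, mm9 chromosome 11, 118884343 to 118892584) was at 12.4, 11.9 and 11.8 at day 0, at 17.5, 18.9, 20.0, 18.9 and 19.9 at day 2 and at 34.1, 31.0, 35.3, 31.9 and 34.3 at day 7. Between these it dipped in the means, to 12.9 ± 4.01 at day 3 and 13.1 ± 1.93 at day 4. The log2 ratio of Cbx7 to Cbx2 was 2.40 ± 0.14 at day 0, 1.29 ± 0.19 at day 2, 1.83 ± 0.08 at day 3 and 1.44 ± 0.15 at day 4, and then -0.56 ± 0.43 at day 5, -1.95 ± 0.55 at day 6 and -2.68 ± 0.29 at day 7. Cbx2 was above Cbx7 in all libraries of days 5, 6 and 7 and of MEF, and below it in all of the others.

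**Figure D2:**
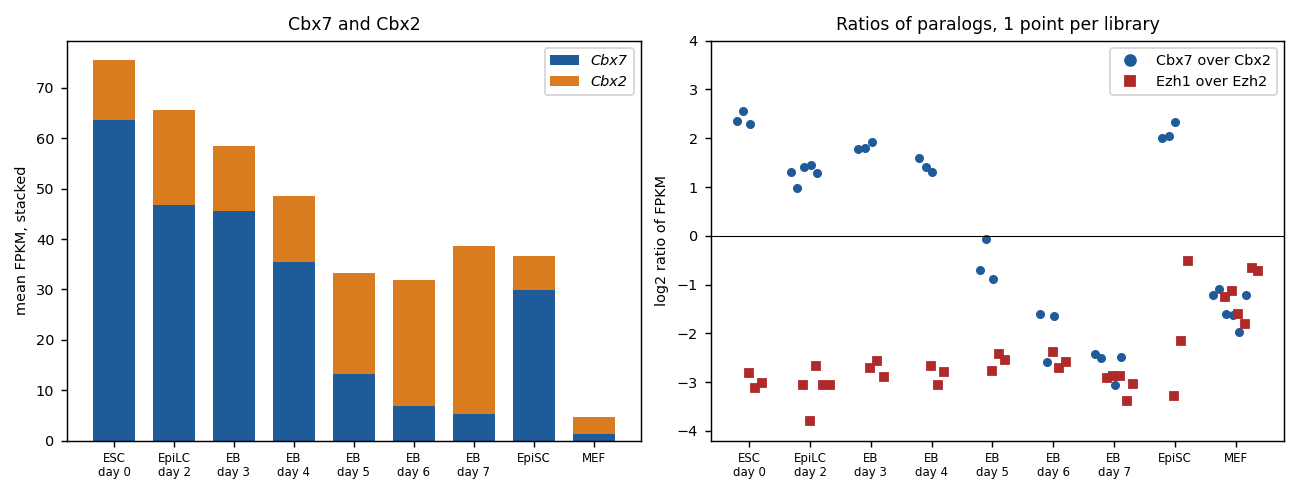
Left, mean FPKM of Cbx7 and Cbx2 stacked by group. Right, log2 ratio of FPKM of Cbx7 to Cbx2 and of Ezh1 to Ezh2 in each library; the first crosses 0 between days 4 and 5 while the second stays between -3.79 and -2.39 along the course.

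Of the summed FPKM of both chromodomain genes, Cbx7 made up 84% ± 1.31 at day 0, 73% ± 2.02 at day 4, 40.6% ± 7.24 at day 5 and 13.7% ± 2.23 at day 7. The sum itself was 75.6 ± 6.1 FPKM at day 0, 33.2 ± 4.5 at day 5 and 38.6 ± 2.36 at day 7. EpiSC had a Cbx7 share of 81.4% ± 1.87, overlapping day 0, at a sum of 36.6 ± 1.5. In MEF the share was 26.9% ± 4.46 of a sum of 4.59 ± 0.972. Other Cbx genes of PRC1 are not in these values, so neither share nor sum gives the level of all Cbx genes in a group. FPKM is per length, so these shares set levels of different genes side by side as a description, without a test.

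From day 0 to day 2, none of the 10 genes was called by limma, where 16.8% of all entries tested were. At an unadjusted p under 0.05 there were 8, a rule for which the share of all entries is not given here. At an adjusted p under 0.05 of any size there were 7 (52.2% of all entries), 5 lower and 2 higher. Nearest to the minimum were Mtf2 (difference -0.98, SE 0.10, adjusted p = 2.34e-09), Suz12 (-0.98, SE 0.15, adjusted p = 1.76e-06) and Eed (-0.77, SE 0.10, adjusted p = 2.71e-07). Without the day 2 library of replicate 1 Mtf2 passed, at -1.02. The other 4 were Cbx2 (0.62), Jarid2 (0.48), Cbx7 (-0.44) and Rnf2 (-0.34). The median of the 10 was -0.20 and that of all entries 0.02. Since the 10 were chosen with earlier results of these data known, this median and those below are a description only. Comparisons below that share the day 0, day 2, day 7, EpiSC or MEF libraries are not independent of each other, and their values are given side by side.

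Between days 2 and 7, in aggregate culture, 3 of 10 fell and none rose (26.1% of all entries were called, 11% lower). Cbx7 fell from 46.7 ± 6.44 to 5.29 ± 1.03 FPKM (difference -2.93, SE 0.16, adjusted p = 1.95e-16). Jarid2 fell from 65.1 ± 3.77 to 21.0 ± 1.87 (-1.59, SE 0.16, adjusted p = 3.35e-10). Pcgf6 fell from 50.8 ± 4.46 to 23.9 ± 1.48 (-1.05, SE 0.12, adjusted p = 5.03e-09), a call that ended under quantile normalization (-0.89), rescaling by median ratios (-0.99) and in project A alone (-0.98). Suz12 was at -0.94 and Cbx2 at 0.78, both short of the minimum. The median of the 10 was -0.52 and that of all entries 0.02.

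Day by day, 1 call was made. Between days 4 and 5 Cbx7 fell (difference -1.35, SE 0.21, adjusted p = 6.1e-06), 1 of 10 genes against 7.77% of all entries called and 1.55% called lower. Eed (-0.46, adjusted p = 0.00316), Pcgf6 (-0.52, adjusted p = 0.0126), Cbx2 (0.55, adjusted p = 0.0153) and Suz12 (-0.43, adjusted p = 0.0488) had an adjusted p under 0.05 in that step, as 28.4% of all entries did, without reaching the minimum. Markers of several cell types moved in the same step. The sum of 4 mesoderm genes was 27.6 to 112 FPKM at day 4 and 411 to 656 at day 5, that of 4 endoderm genes 27 to 58.7 and 73.2 to 122, and that of 5 neural progenitor genes 24 to 27.1 and 73.3 to 74.9. The sum of 5 formative genes was 478 to 525 at day 4 and 148 to 217 at day 5. Their part in the Cbx7 value was not tested. None of the 10 was called by limma between days 2 and 3 (1.87% of all entries called), days 3 and 4 (2.3%), days 5 and 6 (4.96%) or days 6 and 7 (4.8%). At an unadjusted p under 0.05 there were 5, 2, 2 and 1 of them. The share of all entries at that looser rule is not given here, so these numbers cannot be set against the shares called. The smallest adjusted p between days 5 and 6 was again that of Cbx7 (-0.93, SE 0.21, adjusted p = 0.00143). It passed without replicate 1 of day 5 (-1.02) or of day 6 (-1.20), in project B alone (-1.29) and with a pseudocount of 0.1 (-1.04). It was smaller without replicate 2 of day 6 (-0.61) and in project A alone (-0.22), where each day has 1 library. Between days 2 and 3 the smallest were Cbx2 (-0.57, adjusted p = 0.00818), Pcgf6 (-0.47, adjusted p = 0.0157) and Suz12 (-0.42, adjusted p = 0.0409). These leaned on the day 3 library that stood apart, and without it they were -0.35, -0.15 and -0.11, with adjusted p of 0.181, 0.455 and 0.698. Between days 3 and 4 Rnf2 was at 0.48 (adjusted p = 0.0067), or 0.30 without that library (adjusted p = 0.0869), followed by Jarid2 (-0.51, adjusted p = 0.109) and Cbx7 (-0.32, adjusted p = 0.343). Between days 6 and 7 the leading gene was Cbx2 (0.41, adjusted p = 0.0435), ahead of Suz12 (0.22, adjusted p = 0.286) and Ezh2 (0.21, adjusted p = 0.304).

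In the day 3 library that stood apart, values moved with transcript length. Against the mean of replicates 1 and 2, its median log2 difference was 0.36 over the 4819 entries with the shortest transcripts, 0.04 over 4813 of middle length and -0.19 over the 4815 longest, where replicates 1 and 2 differed by -0.05, -0.01 and 0.01. Of the 10 genes, Pcgf6 (-0.95) and Suz12 (-0.93) were lowest in it, followed by Cbx2 (-0.66), Cbx7 (-0.58) and Rnf2 (-0.56), while Ezh2 was at 0.16 and Eed at -0.04. Suz12, Cbx2, Jarid2, Mtf2 and Ezh1 are in the longest class, Eed is in the shortest, and Pcgf6, Cbx7, Rnf2 and Ezh2 are in the middle one. Whether length had a part in these values was not tested.

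Between the start of the course and its end at day 7, 6 of 10 were called, 5 lower and 1 higher (28.8% of all entries were called, 12.6% lower and 16.2% higher). Cbx7 fell 12-fold, from 63.6 ± 6.12 to 5.29 ± 1.03 FPKM (difference -3.37, SE 0.18, adjusted p = 1.83e-16). Suz12 (-1.91, SE 0.15, adjusted p = 9.25e-13), Mtf2 (-1.50, SE 0.10, adjusted p = 8.25e-14), Eed (-1.30, SE 0.10, adjusted p = 2.11e-12) and Jarid2 (-1.11, SE 0.18, adjusted p = 4.55e-06) fell as well. Cbx2 rose from 12.0 ± 0.329 to 33.3 ± 1.81 (1.4, SE 0.15, adjusted p = 1.91e-09). The Jarid2 call ended under quantile normalization, at -0.99. Ezh2 (0.36), Ezh1 (0.29), Rnf2 (0.03) and Pcgf6 (-0.75) were not called. Among the 10, the PRC2 enzyme gene Ezh2 was thus not called while Suz12, Mtf2, Eed and Jarid2 fell. Ezh2 was not alone in this. Of 6 listed PRC2 core genes 4 were not called, among them Rbbp4 (0.08) and Rbbp7 (-0.39), and of 7 accessory genes 3 were not. The median of the 10 was -0.93 against 0.03 over all entries.

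**Figure D3:**
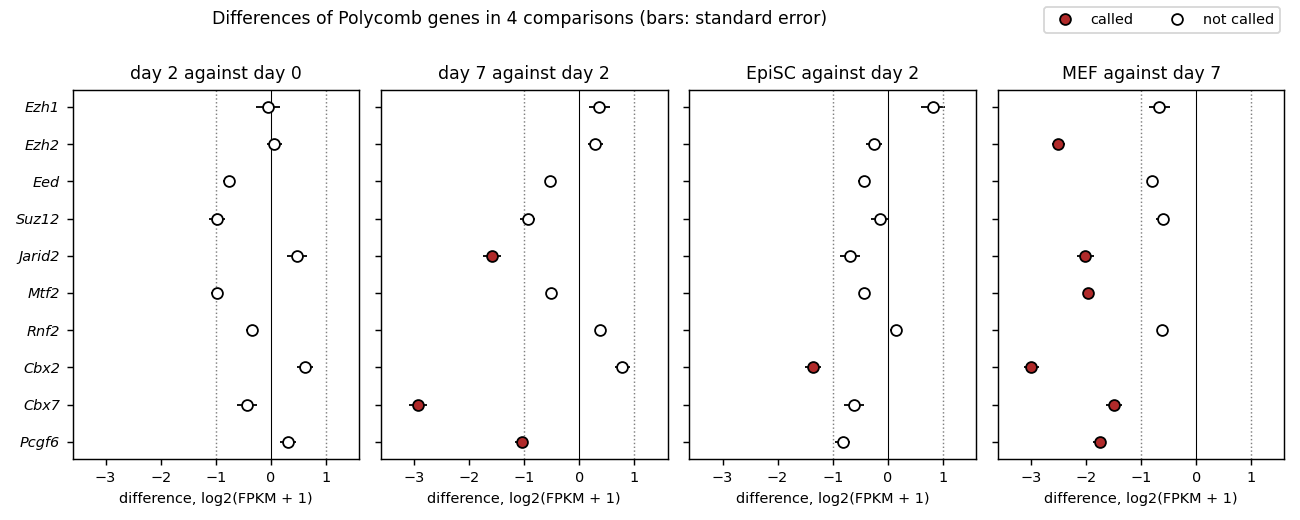
Differences on the log2(FPKM + 1) scale with standard errors for the 10 genes in 4 comparisons; filled points were called and dotted lines mark the minimum difference of 1. No point is filled for day 2 against day 0, 3 are for day 7 against day 2, 1 (Cbx2) for EpiSC against day 2 and 6 for MEF against day 7.

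EpiSC stand for a primed state of pluripotency that also follows the naive one, and were compared with the stem cells and with the formative cells of day 2. Against day 0, 4 of 10 genes fell and none rose (24.9% of all entries were called, 11.7% lower): Mtf2 (35.6 ± 2.96 against 96.4 ± 1.81 FPKM, difference -1.42, SE 0.12, adjusted p = 7.21e-12), Eed (33.2 ± 2.64 against 78.4 ± 9.56, -1.21, SE 0.12, adjusted p = 2.29e-10), Suz12 (46.2 ± 3.76 against 102 ± 3.99, -1.13, SE 0.17, adjusted p = 8.21e-07) and Cbx7 (29.8 ± 1.89 against 63.6 ± 6.12, -1.07, SE 0.21, adjusted p = 4.75e-05). Under quantile normalization the calls of Suz12 (-0.92) and Cbx7 (-0.95) ended, and Cbx7 also ended with the project as a covariate (-0.94) and without replicate 2 of day 0. For Mtf2, Eed and Suz12 the same comparison of day 7 with day 0 gave -1.50, -1.30 and -1.91. Against day 2, Cbx2 alone was called (6.81 ± 0.467 against 19 ± 0.994, -1.36, SE 0.15, adjusted p = 6.84e-09), 1 of 10 genes, where 19.1% of all entries tested were called and 8.22% of all entries tested were called lower. Pcgf6 was at -0.82 (adjusted p = 8.96e-06) and Eed at -0.44 (adjusted p = 0.000569). Cbx2 was thus lower in EpiSC than in any course library, where its lowest value was 8.95.

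Ezh1 in EpiSC depended on single libraries. Its difference from day 2 was 0.82 (SE 0.22, adjusted p = 0.00237) and from day 0 was 0.75 (SE 0.25, adjusted p = 0.0108) by limma, and the libraries overlapped in both. These SE and p rest on the spread shared by all groups and understate that of EpiSC. The SD of Ezh1 was 9.47 FPKM in EpiSC, 1.3 at day 2 and 1 at day 0. Without EpiSC replicate 1, the library at 5.41, these became 1.34 and 1.27, past the minimum. Without replicate 3, the library at 24.3, they were 0.35 and 0.28, with adjusted p of 0.127 and 0.257. The summed FPKM of 7 fibroblast genes was 475, 293 and 355 in EpiSC replicates 1, 2 and 3, against 6.17 to 9.88 at day 0, 8835 to 13256 in MEF and 44.6 to 93.5 at day 7. The part of feeder RNA in the Ezh1 values was not tested. Medium, strain, feeder cells and project all differ between EpiSC and day 0 and cannot be told apart.

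In MEF, cells of a differentiated lineage, 8 of 10 genes were lower than at day 0 (41.9% of all entries were called, 19.2% lower). The exceptions were Ezh1 (-0.38) and Rnf2 (-0.60). Cbx7 ran from 0.893 to 1.71 FPKM, median 1.19, below every other library (1.23 ± 0.292 against 63.6 ± 6.12, difference -4.86, SE 0.18, adjusted p = 2.64e-21). Mtf2 (7.86 ± 0.497 against 96.4 ± 1.81, -3.46, SE 0.10, adjusted p = 1e-23) and Jarid2 (4.63 ± 1.69 against 46.3 ± 3.04, -3.12, SE 0.18, adjusted p = 2.87e-16) followed. Suz12 (-2.53), Pcgf6 (-2.50), Ezh2 (-2.14), Eed (-2.12) and Cbx2 (-1.60) fell too. The median of the 10 was -2.32 and that of all entries -0.01. With the mean of each MEF culture as 1 sample, the same number, 8, was called.

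Against day 7, 6 of 10 were lower in MEF (34.4% of all entries were called, 16.1% lower). Cbx2 had the greatest difference among them (3.37 ± 0.81 against 33.3 ± 1.81 FPKM, -2.99, SE 0.13, adjusted p = 1.35e-19), ahead of Ezh2 (-2.50), Jarid2 (-2.01), Mtf2 (-1.96), Pcgf6 (-1.75) and Cbx7 (-1.49). Eed (-0.81) and Suz12 (-0.61) did not reach the minimum, and Ezh1 (-0.67) and Rnf2 (-0.63) did not either. Against EpiSC, 7 of 10 were lower (36.2% of all entries were called, 16% lower): Cbx7 (-3.8), Jarid2 (-2.92), Mtf2 (-2.04), Pcgf6 (-1.98), Ezh2 (-1.95), Suz12 (-1.40) and Ezh1 (-1.13). The call of Ezh1 rests on 1 library, with overlapping groups, and its difference was -0.67 without EpiSC replicate 3.

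MEF also stood apart in proliferation. A list of 15 proliferation genes, none of them a Polycomb gene, summed to 288 to 777 FPKM in MEF, 1166 to 2333 along the course and 1481 to 1926 in EpiSC. Of the 15, 13 were called lower in MEF than at day 0, where 41.9% of all entries were called and 19.2% called lower. Within MEF the 2 libraries of passage 1 had the highest sums, 659 and 777, against 414 and 367 at passage 0 and 326 and 288 at passage 2. Ezh2 was also highest there, at 13.9 and 17.1 FPKM against 11.1 and 10.7 at passage 0 and 8.27 and 10.1 at passage 2. Suz12 had 20.4 and 22.1 at passage 1 and 14.2 to 16.1 in the other 4, and Eed 19 and 20.1 against 15.6 to 17.0. The passage 1 libraries thus lay above the others in both cultures for Ezh2, Eed and Suz12. Rnf2 was lowest at passage 1, at 30.2 and 29.3 against 31 to 33.3, as was Cbx7, at 0.893 and 0.998 against 1.17 to 1.71. Ezh1 was highest at passage 2, at 5.22 and 6.11 against 4.58 to 4.89. Mtf2 and Pcgf6 peaked at different passages in the 2 cultures. Jarid2 was highest at passage 0, at 7.56 and 5.43 against 2.88 to 4.64, and Cbx2 at passage 2, at 4.73 and 3.95 against 2.72 to 3.08. With 1 library per culture and passage these values are a description, and the part of proliferation in the Ezh2, Eed and Suz12 values was not tested.

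**Figure D4:**
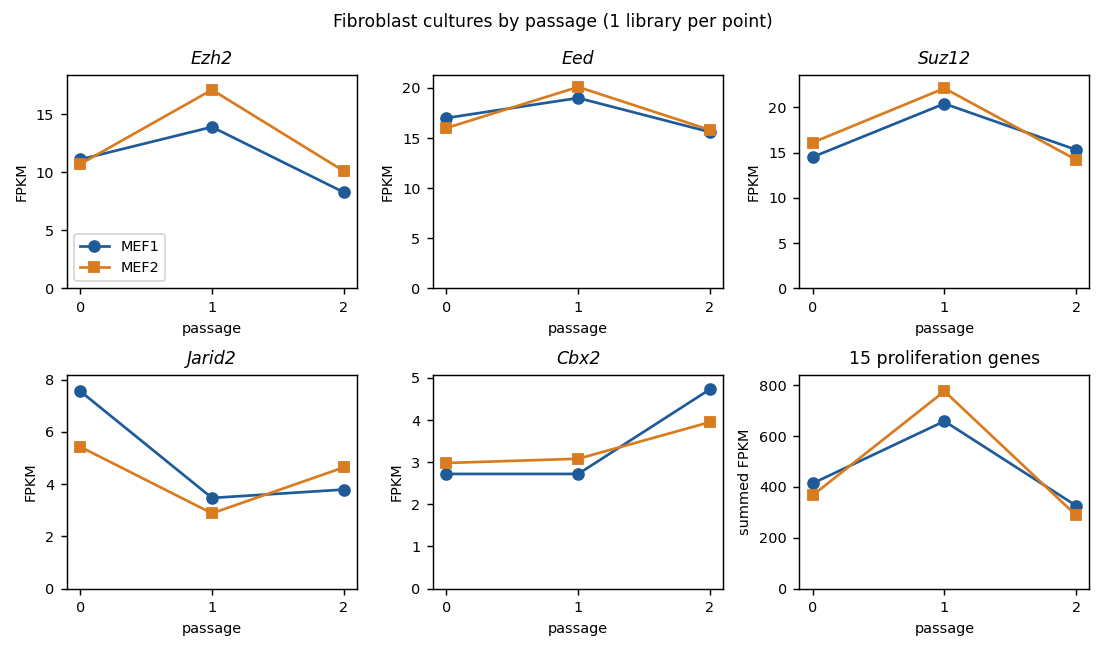
FPKM of Ezh2, Eed, Suz12, Jarid2 and Cbx2, and summed FPKM of 15 proliferation genes, by passage in the 2 MEF cultures (MEF1 and MEF2), 1 library per point. Ezh2, Eed, Suz12 and the proliferation sum peak at passage 1 in both cultures, Jarid2 is highest at passage 0 and Cbx2 at passage 2.

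Other genes of the 2 complexes and their partners were counted from a list of 40, of which 38 had a row of their own and passed the filter. From day 0 to day 2 limma called 1 higher and 1 lower, 2 of 38 where 16.8% of all entries were called. Phc1, a Polyhomeotic subunit of canonical PRC1, rose from 52.0 to 142 FPKM (1.43, adjusted p = 2.33e-12). E130012A19Rik, the PRC2 partner Epop in RefSeq, fell from 424 to 61.4 (-2.77, adjusted p = 2.03e-14). It was at 380, 454 and 439 at day 0 and between 53.8 and 71.4 at day 2, far below.

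From day 2 to day 7, 4 of the 38 were higher and 8 lower, beside 26.1% of all entries called. The higher ones were Ring1, the paralog of Rnf2 (22.7 against 4.66 FPKM, 2.05, adjusted p = 1.79e-14), Bmi1, a Pcgf subunit of canonical PRC1 (21.7 against 6.34, 1.64, adjusted p = 1.14e-12), Phc2 (60.2 against 10.7, 2.41, adjusted p = 2.66e-16) and Yaf2 (26.0 against 9.38, 1.38, adjusted p = 2.89e-13). Ring1 was at 4.65, 4.37, 4.40, 4.90 and 4.97 at day 2 and at 19.3, 28, 20.4, 23.9 and 21.7 at day 7, without overlap, next to a Rnf2 that differed by 0.37. Among the lower ones were Phc1 (27 against 142, -2.35, adjusted p = 2.39e-19), L3mbtl2, a partner of Pcgf6 in variant PRC1 (15 against 46.3, -1.56, adjusted p = 8.95e-16), Usp7 (-1.13) and AU022751, named Ezhip in RefSeq and known as an inhibitor of PRC2 (0.232 against 17.0, -3.81, adjusted p = 1.07e-16). E130012A19Rik, Pcgf5, Scml2 and the H3K27 demethylase gene Kdm6a (14.8 against 32.9, -1.09, adjusted p = 1.16e-06) complete the 8. Against day 0, day 7 had 5 higher and 7 lower, beside 28.8% of all entries.

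EpiSC had 4 higher and 9 lower of the 38 against day 0, and 4 higher and 7 lower against day 2, beside 24.9% and 19.1% of all entries called. Phf19, a Polycomb-like protein of the same family as Mtf2, was higher against both (14.0 against 0.999 and 2.62 FPKM, 2.88 and 2.01, adjusted p = 7.74e-11 and 1.84e-08), while Mtf2 was at -1.42 and -0.43. Kdm2b, which brings a variant PRC1 to CpG islands, was lower against both (13.5 against 49.4 and 32.4, -1.80 and -1.21, adjusted p = 1.8e-13 and 1.81e-10). In MEF, 4 were higher and 11 lower than at day 0, beside 41.9% of all entries. Phf1, the remaining Polycomb-like gene, was higher (13.9 against 3.68, 1.67, adjusted p = 1.7e-08), as were Ring1, Bmi1 and Phc2. E130012A19Rik (2.07 against 424, -7.14, adjusted p = 6.3e-26) and L3mbtl2 (5.43 against 46.6, -2.89, adjusted p = 7.35e-22) had the smallest adjusted p of those lower, and AU022751 was listed at 0 in all 6 MEF libraries. Of 11 listed trithorax methyltransferase genes, which encode the opposing activity, 6 had a row of their own and were tested. Kmt2c was lower in EpiSC than at day 0 (3.26 against 8.11, -1.10, adjusted p = 4.02e-05) and Setd1b higher in MEF than in EpiSC (9.12 against 3.27, 1.26, adjusted p = 3.59e-08). None of the 6 was called by limma from day 0 to day 2, from day 2 to day 7, from day 0 to day 7 or between MEF and day 0. Of all entries, 16.8%, 26.1%, 28.8% and 41.9% were called there, and 6 genes are too few to be set against these shares. At an unadjusted p under 0.05 there were 3, 2, 2 and 4 of the 6, a rule for which the share of all entries is not given here. The median of the 38 was -0.04, 0.02, -0.18 and -0.36 in these 4 comparisons, beside -0.20, -0.52, -0.93 and -2.32 for the 10 genes. The 10 genes and the lists were chosen with earlier results of these data known, so this contrast is a description only.

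**Figure D5:**
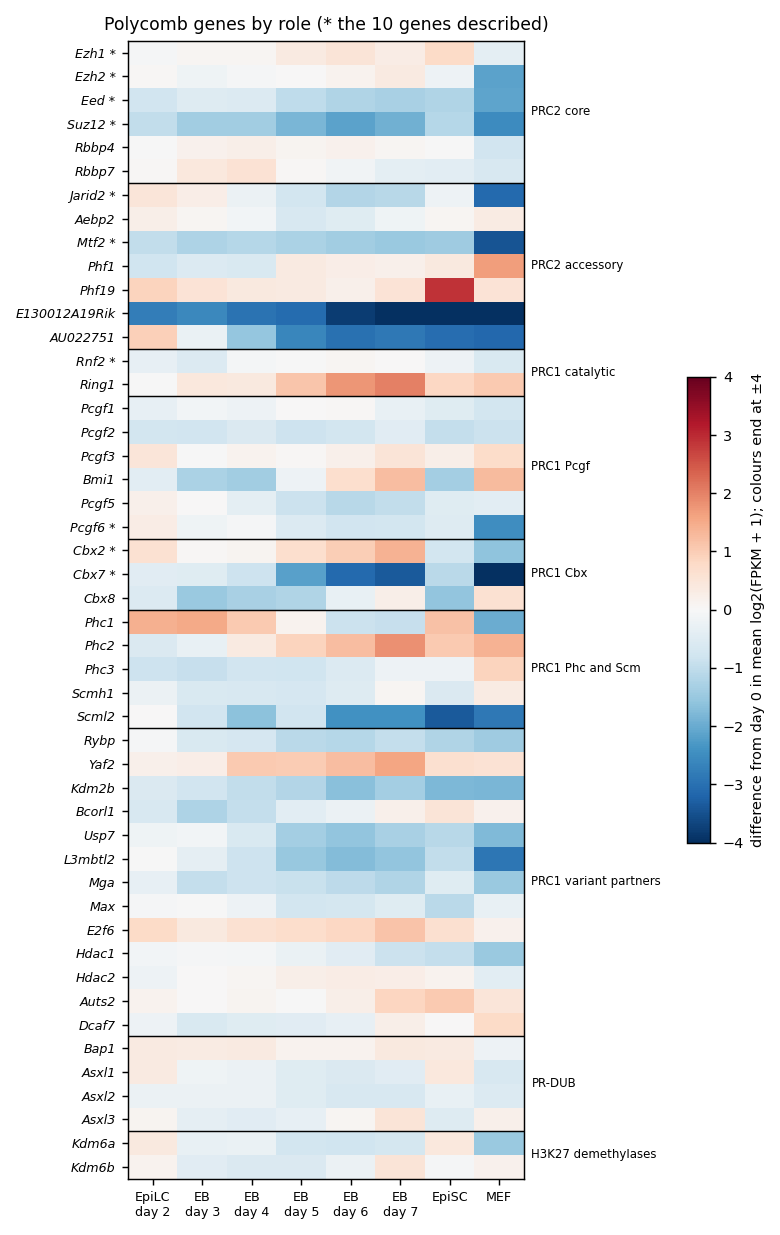
Difference of the group mean of log2(FPKM + 1) from day 0 for the 10 Polycomb genes (starred) and 38 others, in rows by role, with groups in columns; red is higher and blue lower than day 0, and colours end at differences of 4. Cbx7, E130012A19Rik and AU022751 are among the darkest blue rows late in the course, Ring1, Bmi1 and Phc2 turn red, and Rnf2 and Rbbp4 stay pale along the course.

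Of 20 genes known as Polycomb targets in mouse cells, 18 passed the filter. At day 7, 8 were higher and 4 lower than at day 2, the rest not called, beside 26.1% of all entries called. Of the 20, 5 had no signal at day 2 (Hoxa9, Hoxb4, Hoxc8, Hoxd10 and Evx2). A target near 0 FPKM at day 2 passes the filter only through other groups, and cannot be called lower. The numbers higher and lower are therefore a description and cannot be set against that share. The same limit holds for targets near 0 at day 0 in the comparison with MEF below. Lower were Wt1, Hoxd13, Cdkn2a and Cdkn2b, chosen for naming after their values were seen. Higher were the neural tube regulators Nkx6-1 (61.8 against 0.0247 FPKM, 5.90, adjusted p = 7.41e-21) and Nkx2-2 (13.2 against 0.283, 3.44, adjusted p = 3.04e-19), the floor plate and endoderm regulator Foxa2 (59.5 against 0.445) and Hoxb4 (7.41, where it was listed at 0 in all day 2 libraries). Cdkn2a, the cell cycle inhibitor locus that Polycomb is best known for silencing, was at 62.6, 63.6 and 54.5 FPKM at day 0 and between 1.85 and 5.98 at day 7 (-4.03, adjusted p = 8.16e-11). The row does not separate the 2 transcripts of the locus. In MEF, 7 of the 18 were higher and 1 lower than at day 0, beside 41.9% of all entries, among them Cdkn2b (41.0 against 3.78, 3.13, adjusted p = 1.46e-13) and Hoxd13 (41.7 against 1.61, 4.01, adjusted p = 2.44e-21), while Cdkn2a was at 25.6 against 60.2 (-1.29, adjusted p = 0.0022). Within MEF Cdkn2a was at 13.1 and 14.8 at passage 0, 31.7 and 33.3 at passage 1 and 25.8 and 34.7 at passage 2. No histone mark was measured in these libraries.

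Among the 10 genes, patterns over the 9 group means were described by Pearson r of mean log2(FPKM + 1). No test was made, since the course groups share a cell line and the MEF mean weighs on every r. The highest were 0.97 for Jarid2 with Pcgf6, 0.94 for Jarid2 with Cbx7 and 0.93 for Eed with Mtf2. The 2 chromodomain genes Cbx2 and Cbx7 had 0.14, and Rnf2 with Cbx7 had 0.08. Over 11396 entries whose group means ranged over at least 1, those most like Cbx7 were Rbpms2 (r = 0.989), 1700019D03Rik (0.986) and Hspa14 (0.986). Most like Jarid2 were Mms22l (0.991), Slc35f2 (0.985) and Dyrk3 (0.984), and most like Pcgf6 Haus2 (0.992), Zfp850 (0.991) and Nup133 (0.986). For Ezh2 they were Dck (0.986), Angel1 (0.974) and Bex2 (0.974), for Eed Rtel1 (0.993), Alg13 (0.99) and Alpl (0.987), and for Suz12 Epn2 (0.981), Pxt1 (0.978) and Ipmk (0.977). For Mtf2 they were Fam49b (0.986), Zfp961 (0.986) and Atrx (0.983), for Cbx2 Phyhipl (0.97), Nsg2 (0.953) and Zbtb26 (0.947), and for Ezh1 Lmntd2 (0.973), Mettl22 (0.969) and Cntd1 (0.951). Rnf2 did not range over 1 and was left out. Each r is over 9 points.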

How the data were processed

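The authors deposited FPKM per gene, on build mm9, with HISAT2 2.0.4, Cufflinks 2.2.1, Cuffdiff and cutadapt 1.4.1 among the tools named, per the submitters' processing notes. The scaling between libraries and the strand setting are not given in the sources used here, so FPKM of overlapping genes are uncertain. A stranded messenger RNA kit was used, per the labels' protocols. Library type and groups follow titles and source names.

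FPKM is not a count, so log2(FPKM + 1) of the 14595 entries with at least 1 FPKM in 3 or more of 34 libraries was fitted with limma 3.58.1 in R 4.3.3 (1 mean per group, 9 groups, eBayes with trend) for 13 comparisons and a moderated F test over the course. Benjamini-Hochberg adjustment was over all entries. A call needs an adjusted p under 0.05 and a difference of at least 1. The fit was tested on simulated data.

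The Polycomb genes and all gene lists were chosen with earlier results of these data known. Genes named were all called Polycomb genes, or the 3 with the smallest adjusted p where fewer were called, up to 4 called genes per list, and the 3 entries most alike. Cdkn2a could be named anywhere. Members named beyond this were chosen after their values were seen.

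Dates in the titles pair libraries of days 2 to 7 by culture course. Deviations of libraries from 1 course correlated between -0.319 and 0.304, over 0.1 in 7 of 45 pairs. The main fit had no block. Alternatives were another pseudocount (0.1), other filters (none, 5 FPKM), fits of 2 groups, median-ratio rescaling, quantile normalization, project as covariate or alone, no minimum difference, blocks, MEF culture means and each library left out. Transcript lengths came from GENCODE by RefSeq identifier for 99% of entries tested. Promoters came from RefSeq by symbol. Proteins were not used here. Of the other Polycomb genes, 1 is not reported here.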

Additional observations from a re-analysis of the deposited data

Results flagged for a closer look

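Each Polycomb gene was examined for a library far from the others in each group of 4 to 10 libraries, 30 groups of values in all, of which chance flags about 1 in 20. Pcgf6 in MEF was the 1 found: MEF1 at passage 2 (replicate 5) had 8.64 FPKM, and the other 5 libraries had 5.60 to 6.42, a gap of 0.73 of the whole range. MEF2 at the same passage had 5.97.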

How the results depend on the processing

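The numbers of Polycomb genes called were the same, or within 1.5 times, under all alternatives but those given here. With no minimum difference they were 7 for day 2 against day 0, 9 for day 7 against day 2, 7 for EpiSC against day 0 and 7 for EpiSC against day 2. They were 10 for MEF against day 7, and 3, 1, 5, 1 and 1 for the steps from day 2 to day 7. Fewer conditions are asked for there. By that rule 52.2% of all entries were called for day 2 against day 0 and 28.4% for day 5 against day 4. The other shares are not given here, and these numbers are not read as a result about the 10 genes. Quantile normalization gave 2 for EpiSC against day 0, and the cause was not tested. For day 6 against day 5, a pseudocount of 0.1 and project B alone gave 1 each in place of 0, and in project A alone, 1 library against 1, Jarid2 was at 0.18 in place of -0.45. Leaving out 1 library gave 0 to 1 for day 2 against day 0, 0 to 1 for day 6 against day 5 and 1 to 2 for EpiSC against day 2. Dates pair the course libraries, and a replicate block by culture course gave 3 for day 7 against day 2 and 1 for day 5 against day 4, as without it. A replicate block by number gave 6 for day 7 against day 0 and 8 for MEF against day 0, and neither block changed a number of genes called. Over all entries, a pseudocount of 0.1 moved calls by over 1.5 times, from 2449 to 3926 for day 2 against day 0, from 2782 to 4449 for EpiSC against day 2, and in the daily steps from 273 to 796, 335 to 731, 1134 to 2035, 724 to 1232 and 700 to 1341. A replicate block by number, in a fit of the 2 groups alone, took these steps from 273 to 1 (day 3 against day 2), 335 to 0 (day 4 against day 3), 724 to 0 (day 6 against day 5) and 700 to 410 (day 7 against day 6), and the fit of 2 groups without it took day 4 against day 3 to 168. Replicate numbers follow the culture courses from day 3 to day 6, but at days 2 and 7 only replicate 1 does, so there the block by number does not pair courses. The shares of all entries called printed beside those steps rest on the fit without a block. Project A alone gave 146 for day 3 against day 2 and 221 for day 4 against day 3, and leaving out replicate 1 of day 3 gave 446 for day 3 against day 2. With no minimum difference, calls over all entries rose by over 1.5 times in every comparison, to between 1790 and 13223. For day 5 against day 4, quantile normalization turned 908 higher and 226 lower into 716 and 381. Depth is unknown, so low values such as Cbx7 in MEF carry a counting error that cannot be given.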
